A study of Homo sapiens with 6 samples.

Results

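The miR-335 hairpin gives rise to a pair of mature miRNAs, hsa-miR-335-3p from its 3′ arm and hsa-miR-335-5p from its 5′ arm. They were taken by name from the table of mature miRNA counts and are 2 of the 2588 miRNAs listed in every library. Both were followed across 2 cell lines and 3 conditions, as levels and as the ratio of 3p reads to 5p reads (arm ratio). Small RNA was sequenced from A549, a line from a human lung adenocarcinoma, and BEAS-2B, a virus-immortalised line of human bronchial epithelium, both given as wild type. For each line, 1 library came from untreated control cells, 1 from cells given 1 ng/mL TGF-β1 and 1 from cells given 5 ng/mL TGF-β1, a cytokine under which epithelial cells can take on mesenchymal features. TGF-β1 was added 24 h after seeding in medium with little serum and left for 48 h, and whether the controls had the same low-serum medium was not stated. There were no replicates, so a dose could not be tested within a line, and a test that takes the lines as pairs was not run. Every interval below is a 95% interval of counting error only. The study picked miR-335-3p for follow-up from these same libraries, so its lower level after treatment is a description here and not independent evidence.

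A miRNA hairpin is cut first in the nucleus and then in the cytoplasm to a short duplex, of which either strand can enter an Argonaute protein and guide it to mRNAs. Targets are recognised mainly through the seed near the 5′ end of the miRNA, so the arms of a hairpin read different sets of mRNAs even though they come from the same transcript. MIR335 is hosted by MEST, an imprinted gene expressed from the paternal allele and active in mesodermal tissue. miR-335-5p, the more studied arm, is known as a suppressor of metastasis in breast cancer. Thrombospondin 1 (THBS1), which the study connected with miR-335-3p, is a matrix protein that activates latent TGF-β1.

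The mature sequences are shown because the seeds and the ends of the duplex differ between the arms. They are from RefSeq (GRCh38.p14), 5′ to 3′, with the seed (bases 2 to 8) in capitals.
hsa-miR-335-3p: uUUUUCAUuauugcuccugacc
hsa-miR-335-5p: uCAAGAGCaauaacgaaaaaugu
hairpin loop between them: uugucauaaaccg
The 5p arm lies at chr7:130496126-130496148, the loop at chr7:130496149-130496161 and the 3p arm at chr7:130496162-130496183, all on the plus strand. miR-335-3p has 22 bases with a GC content of 36.4%, and miR-335-5p has 23 bases with a GC content of 30.4%. Among the 203 matched miRNAs whose normalised counts averaged at least 50, the median GC content was 47.6%. Only 28 of them had a lower GC content than the 3p arm, and 6 had a lower one than the 5p arm. miR-335-3p begins with 5 U in a row, and of the 2281 listed names with a RefSeq sequence it was the only one to do so. No other listed miRNA with a RefSeq sequence shared bases 2 to 8 or bases 2 to 7 with either arm, and listed names without one were not compared. The predicted fold of the hairpin of 94 bases had a free energy of -40.2 kcal/mol, and 18 of the 22 bases of the 3p arm were paired with the 5p arm. At the 5′ end of the 3p arm, all of the first 5 bases were paired, with 0 GC pairs. At the 5′ end of the 5p arm, 4 of the first 5 bases were paired, with 2 GC pairs.

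The hairpin lies at chr7:130496111-130496204 on the plus strand, the strand of MEST (chr7:130486171-130506465, GENCODE release 29 on GRCh38). Of 17 annotated MEST transcripts, 13 span it, always within an intron of 1633 bases. That intron begins 589 bases before the hairpin and ends 952 bases after it, and in no transcript does the hairpin overlap an exon. An antisense gene, AC007938.2 (chr7:130495794-130498427, minus strand), covers the same position. The handling of strand in counting was not given in the sources used here, so reads from the opposite strand could not be told apart.

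Total counts were between 633318 and 900424 per library, and a count of 0 would have allowed up to 3 counts, which is 3.33 to 4.74 CPM, reads brought to the same total in every library. Counts were scaled by the trimmed mean of M-values (TMM), and ND is log2(normalised count + 1). A log2 ratio is a difference of ND values, and its interval is that of the ratio without the added 1. A difference was called at a fold of at least 1.4 with an ND of at least 8 in the greater of the libraries compared, and an ND of 8 is a normalised count of 255. The BEAS-2B control stood apart from the other 5 libraries, with a TMM factor of 1.32 against 0.829 to 1.02 and with 35.4% of its reads from hsa-miR-21-5p against 47.6% to 57.2%. Ratios of both treated BEAS-2B libraries rest on that control, and its part in them was not tested. All 6 epithelial marker miRNAs had a count, with sums of 219 to 384 in A549 and 297 to 472 in BEAS-2B libraries, but hsa-miR-205-5p had at most 2 reads and hsa-miR-141-3p at most 8. Blood, muscle and liver markers summed to between 0 and 14. The endothelial marker hsa-miR-126-3p had 1003 to 1280 reads in A549 and 197 to 393 in BEAS-2B libraries, where it was highest in the control as the miR-335 arms were, and its part in their levels was not tested. In bulk RNA, fewer cells with a miRNA and less of it per cell cannot be told apart.

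miR-335-3p was the more abundant arm in every library, and both arms were highest in untreated BEAS-2B cells. The A549 libraries held 358 reads of miR-335-3p without TGF-β1, 300 with 1 ng/mL and 206 with 5 ng/mL. The BEAS-2B libraries held 1174, 117 and 135 reads of it in the same order. The 2 treated BEAS-2B libraries thus held the fewest reads of this arm, although the untreated library of the same line held the most. Of miR-335-5p, the A549 libraries held 39, 39 and 22 reads and the BEAS-2B libraries 317, 73 and 101. For the 5p arm, all BEAS-2B libraries were above all A549 libraries.

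After TMM scaling, the normalised count of miR-335-3p was 372.5 in untreated A549 cells, 301.2 with the lower dose and 239.7 with the higher dose. In BEAS-2B cells, it was 903, 135.5 and 132.4. The 3p arm therefore met the ND criterion in both controls and in the A549 library at 1 ng/mL, where its ND was 8.24, but not in the A549 library at 5 ng/mL, where its ND was 7.91. For miR-335-5p, the normalised count was 40.6, 39.2 and 25.6 in A549 libraries, and in BEAS-2B libraries it was 243.9, 84.5 and 99.0. The 5p arm stayed under the ND criterion in all 6 libraries, with its highest ND of 7.94 in the BEAS-2B control. Under 6 of 7 other scalings, the ND of the 5p arm in that control was 8.02 to 8.34, just past the criterion.

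**Figure D1:**
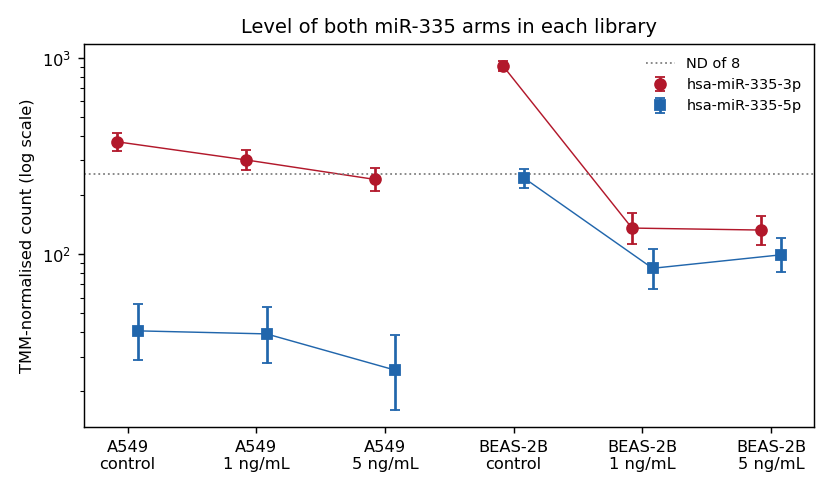
TMM-normalised counts of miR-335-3p and miR-335-5p (vertical axis, log scale) in each of the 6 libraries (horizontal axis), with bars for 95% counting intervals and 1 library per group. The 3p arm is at 903 in the BEAS-2B control and at 135.5 and 132.4 after TGF-β1, and the dotted line marks an ND of 8.

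Among all miRNAs, the 3p arm took place 55 by abundance in the BEAS-2B control and places 149 and 155 at 1 and 5 ng/mL. In A549 cells it took places 104, 116 and 128. The 5p arm took places 114, 176 and 169 in BEAS-2B cells and 237, 257 and 287 in A549 cells. In the BEAS-2B control, the 3p arm stood between hsa-miR-16-2-3p, with a count of 1229, and hsa-miR-31-5p, with 1172, and the 5p arm stood between hsa-let-7d-3p (322) and hsa-miR-221-5p (307). In the A549 control, the 3p arm stood between hsa-miR-193b-3p (360) and hsa-miR-106b-5p (352), and the 5p arm between hsa-miR-181a-3p (40) and hsa-miR-4443 (39).

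Placed in order, the 3p levels ran from the BEAS-2B control through the A549 control, A549 at 1 ng/mL, A549 at 5 ng/mL and BEAS-2B at 1 ng/mL to BEAS-2B at 5 ng/mL. Under TMM, every step was beyond counting error except the last, a log2 difference of 0.03 (-0.34 to 0.40). These steps were computed from normalised counts without the added 1. The order of the 5p levels was the BEAS-2B control, BEAS-2B at 5 ng/mL, BEAS-2B at 1 ng/mL, the A549 control, A549 at 1 ng/mL and A549 at 5 ng/mL. For the 5p arm, the steps between the treated BEAS-2B libraries (0.23, -0.22 to 0.68) and among the A549 libraries were within counting error, the last of them at 0.61 (-0.18 to 1.44).

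The first comparison asked how the arms differed between TGF-β1-treated and control cells. In BEAS-2B cells given 1 ng/mL, the level of miR-335-3p differed from the control by -85.0%, or -2.73 (-3.02 to -2.46) as a log2 ratio. With 5 ng/mL it differed by -85.3%, or -2.76 (-3.04 to -2.51). It passed both criteria at both doses. The ND criterion was met only through the control, with an ND of 9.82 against 7.09 and 7.06 in the treated libraries. The call is thus partly set by the criterion and is not used as support. At 1 ng/mL, 13.3% of the 120 miRNAs meeting the ND criterion were called lower, and at 5 ng/mL 16% of 125 were. None of these had a lower ratio than miR-335-3p at either dose, and their median log2 ratios were -0.04 and -0.08.

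The other arm was also lower in treated BEAS-2B cells, but by less. The log2 ratio of miR-335-5p to the control was -1.52 (-1.92 to -1.16) for the lower and -1.29 (-1.64 to -0.97) for the higher dose. It was not called because of its ND. At 5 ng/mL, its ratio was below that of every miRNA meeting the ND criterion apart from the 3p arm, and the 10th and 90th percentiles of those miRNAs were -0.60 and 0.83. Under all 8 scalings run, the 3p arm had the lowest and the 5p arm the second lowest ratio in this comparison. The same held with the ND criterion at 7, which 160 miRNAs met under TMM and 162 to 172 under the other scalings. All scalings but quantile normalisation multiply a library by a constant, which shifts every log2 ratio nearly alike. Under them the order could hardly change, only the set of miRNAs meeting the criterion, so their agreement is not used as support. With both arms summed, these ratios became -2.38 (-2.61 to -2.16) and -2.30 (-2.51 to -2.11).

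In A549 cells the differences were smaller. With 1 ng/mL, miR-335-3p differed from the control by -19.1%, and its log2 ratio of -0.31 (-0.53 to -0.08) did not reach 1.4-fold, which 21.9% of 137 miRNAs did in that direction. With 5 ng/mL it differed by -35.6%, and its log2 ratio of -0.63 (-0.89 to -0.38) passed both criteria, as did 26.2% of 141 miRNAs in the same direction. Here too the ND criterion was met only through the control, with an ND of 8.55 against 7.91. At the lower dose 47 of the 137 miRNAs, and at the higher dose 30 of the 141, had a lower ratio than miR-335-3p, so its place there was not at the end of the distribution. Across 7 other scalings the value at 5 ng/mL ran from -0.79 to -0.48, and 6 of them kept it past 1.4-fold.

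For miR-335-5p in A549 cells, the log2 ratio was -0.05 (-0.73 to 0.63) for the lower and -0.64 (-1.49 to 0.13) for the higher dose. With 22 to 39 reads per library, both intervals included no change. The interval at 1 ng/mL did not reach the -1.52 of this arm in BEAS-2B cells, so only smaller differences were left unresolved at that dose. The summed arms had log2 ratios of -0.28 (-0.49 to -0.07) and -0.64 (-0.88 to -0.40).

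**Figure D2:**
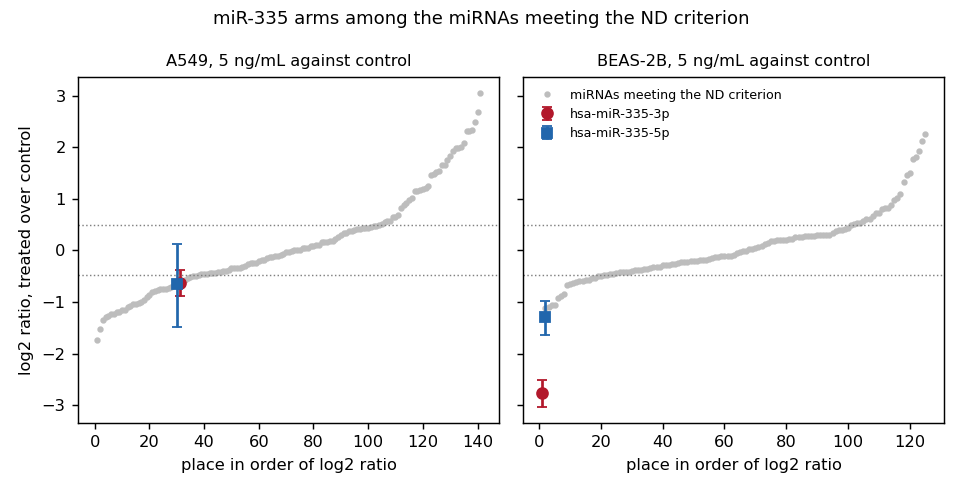
Log2 ratio of 5 ng/mL TGF-β1 to control (vertical axis) for every miRNA meeting the ND criterion, placed in order (horizontal axis), for A549 (141 miRNAs) and BEAS-2B cells (125 miRNAs), with the miR-335 arms marked. In BEAS-2B cells the 3p arm, at -2.76, is the lowest point and the 5p arm, which is under the ND criterion, lies at -1.29, while in A549 cells 30 miRNAs lie below the 3p arm.

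The comparison between doses does not use the control libraries. In BEAS-2B cells, the log2 ratio of 5 to 1 ng/mL was -0.03 (-0.40 to 0.34) for the 3p arm and 0.23 (-0.22 to 0.68) for the 5p arm, and neither was beyond counting error or called, while 0.826% of 121 miRNAs were called lower. The 3p value ran from -0.15 to 0.20 over the other scalings. In A549 cells, the 3p arm was lower at the higher dose, with a log2 ratio of -0.33 (-0.59 to -0.07), short of 1.4-fold, beyond which 8.46% of 130 miRNAs were lower. This value ran from -0.54 to -0.035 over the other scalings, and the value nearest to 0, under total-count scaling, was within counting error. The 5p arm had a log2 ratio of -0.59 (-1.44 to 0.18).

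The next comparison asked whether the arms responded differently in the lines. Taken as the BEAS-2B log2 ratio to control minus that of A549, the difference for miR-335-3p was -2.43 (-2.80 to -2.07) for the lower and -2.13 (-2.50 to -1.77) for the higher dose. For miR-335-5p, it was -1.47 (-2.26 to -0.69) and -0.63 (-1.50 to 0.26). The larger decrease in BEAS-2B cells was thus beyond counting error at both doses for the 3p arm and at the lower dose for the 5p arm. With both arms summed it was -2.10 (-2.41 to -1.79) and -1.67 (-1.99 to -1.35).

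Between the untreated lines, both arms were higher in BEAS-2B cells. miR-335-3p had a log2 ratio of BEAS-2B to A549 of 1.28 (1.11 to 1.45) and was called higher, as were 28.1% of 135 miRNAs. miR-335-5p had a log2 ratio of 2.56 (2.10 to 3.11), and 3 of those 135 miRNAs exceeded it.

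With TGF-β1, the arms parted. At 1 ng/mL, miR-335-3p was lower in BEAS-2B than in A549 cells, with a log2 ratio of -1.15 (-1.47 to -0.84), and was called lower with 38.5% of 143 miRNAs. It met the ND criterion there only through the A549 library. At 5 ng/mL, its log2 ratio was -0.85 (-1.18 to -0.54), without the ND criterion being met, and 38.4% of 146 miRNAs were called lower. miR-335-5p remained higher in BEAS-2B cells, by 1.09 (0.53 to 1.71) and 1.91 (1.28 to 2.69) on the log2 scale. Under every scaling run, the 3p arm kept its sign in all 3 of these comparisons. The summed arms had log2 ratios of 1.47 (1.31 to 1.64) in the controls, -0.63 (-0.89 to -0.37) with the lower dose and -0.20 (-0.47 to 0.07) with the higher dose, and the sign of the last depended on the scaling (-0.23 to 0.06).

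The arm ratio compares reads within a library, so it does not depend on scaling between libraries. A549 cells gave 9.18 (6.58 to 13.1) reads of miR-335-3p per read of miR-335-5p without TGF-β1, 7.69 (5.50 to 11.0) with the lower and 9.36 (6.02 to 15.3) with the higher dose. BEAS-2B cells gave 3.70 (3.27 to 4.21), 1.60 (1.19 to 2.18) and 1.34 (1.03 to 1.75). The lines did not overlap, and within BEAS-2B cells the control was apart from both treated libraries. As a share of miR-335 reads, the 3p arm was 90.2%, 88.5% and 90.4% in A549 cells. In BEAS-2B cells its share was 78.7% (76.6 to 80.8), 61.6% (54.3 to 68.5) and 57.2% (50.6 to 63.6).

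**Figure D3:**
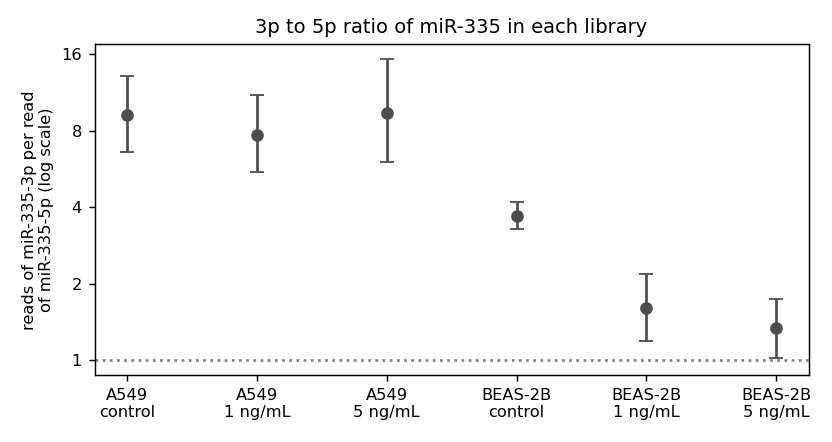
Reads of miR-335-3p per read of miR-335-5p (vertical axis, log scale) in each of the 6 libraries (horizontal axis), with bars for exact 95% counting intervals and a dotted line where the arms are equal. The 3 A549 libraries lie between 7.69 and 9.36, and BEAS-2B cells go from 3.70 in the control to 1.60 and 1.34 with TGF-β1.

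In BEAS-2B cells, the log2 arm ratio changed by -1.21 (-1.68 to -0.73) with the lower dose and by -1.47 (-1.90 to -1.04) with the higher dose. In A549 cells, it changed by -0.25 (-0.97 to 0.46) and 0.03 (-0.81 to 0.89), neither beyond counting error. Between the treated BEAS-2B libraries the change was -0.26 (-0.85 to 0.33). Between the lines, the log2 arm ratio of BEAS-2B minus that of A549 was -1.31 (-1.86 to -0.79) in the controls, -2.26 (-2.94 to -1.59) with the lower dose and -2.81 (-3.61 to -2.04) with the higher dose.

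Other hairpins give the background for these shifts. Of 838 name pairs with both arms listed, 60 hairpins had a mean count of at least 20 for each arm. An arm ratio lower by at least 1.4-fold was found in 20% of them with the lower dose and in 18.3% with the higher dose in BEAS-2B cells. Only 2 hairpins had a larger fall of the arm ratio than miR-335 at 1 ng/mL, and 1, miR-27a, at 5 ng/mL. An interval lying wholly beyond 1.4-fold, as that of miR-335 did, was found for 4 of the 60 hairpins (6.67%) with the lower dose and for 6 (10%) with the higher dose. Between the lines, an arm ratio lower by at least 1.4-fold was found in 25% of hairpins in the controls, 23.3% at 1 ng/mL and 30% at 5 ng/mL, and the numbers of hairpins further down than miR-335 were 0, 0 and 1.

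The hairpins with the largest shifts in BEAS-2B cells at 5 ng/mL were of several kinds. miR-27a, a member of the miR-23a cluster, had a change of -1.70 (-1.89 to -1.50), with the 3p arm going from 41887 to 25345 reads and the 5p arm from 331 to 649. miR-340 followed miR-335 with -1.30 (-2.19 to -0.46). The largest rises were those of miR-654 at 2.79 (-0.16 to 8.28), with its 5p arm going from 8 reads to 1, miR-23b at 1.52 (0.19 to 3.10) and miR-3074 at 1.39 (0.53 to 2.29). In A549 cells at 5 ng/mL, miR-27a also had the largest fall, -2.16 (-2.34 to -1.98), followed by miR-369 at -1.91 and miR-193b at -1.12, and the largest rises were those of miR-340 at 1.97, miR-409 at 1.49 and miR-424 at 1.39. miR-27a was thus at the low end in both lines, and miR-335 in BEAS-2B cells alone among the 3 largest falls.

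**Figure D4:**
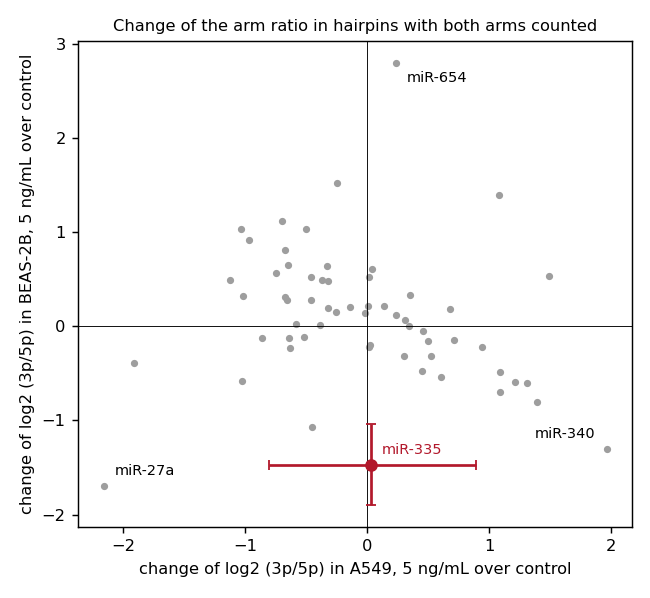
Change of log2 (3p/5p) from control to 5 ng/mL TGF-β1 in A549 (horizontal axis) and BEAS-2B cells (vertical axis) for 60 hairpins, 1 point each, with the bars on miR-335 marking 95% counting intervals. miR-335 lies at 0.03 and -1.47, and miR-27a lies at -2.16 and -1.70.

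The likeness of other miRNAs to each arm was measured as the root mean square distance between centred ND values over the 6 libraries, among the 223 miRNAs whose normalised counts averaged at least 50. For miR-335-3p, the most alike were hsa-miR-149-5p at a log2 distance of 0.62, hsa-miR-30a-3p at 0.63, hsa-miR-452-5p at 0.66, hsa-miR-30c-2-3p at 0.71 and hsa-miR-425-5p at 0.74. The spread of the 3p arm itself was 0.94 on this scale, so even its nearest neighbour followed it loosely. hsa-miR-149-5p had 520, 445 and 430 reads in the A549 and 1395, 385 and 514 in the BEAS-2B libraries. Like the 3p arm it was highest in the BEAS-2B control, but the decrease was smaller.

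For miR-335-5p, the most alike were hsa-miR-15b-5p at 0.40, hsa-let-7d-3p at 0.44, hsa-miR-99a-5p at 0.45, hsa-let-7b-3p at 0.49 and hsa-miR-16-5p at 0.49, against its own spread of 1.06. hsa-miR-15b-5p had 205, 187 and 170 reads in the A549 and 986, 429 and 641 in the BEAS-2B libraries. These miRNAs were higher in all BEAS-2B libraries than in any A549 library. The arms of miR-335 were not near each other by this measure: the 3p arm took place 95 of 222 in likeness to the 5p arm, at a distance of 1.14, and the 5p arm was further down the list for the 3p arm.

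Genomic neighbours were examined for each line. Of 11 other hairpins within 5 Mb on chromosome 7, the nearest were MIR29A and MIR29B1, at 380.5 kb and 381.3 kb, and the MIR182, MIR96 and MIR183 cluster, at 721 to 726 kb. Mature miRNAs of these 5 hairpins made up the 5 neighbours whose normalised counts averaged at least 10. hsa-miR-29a-3p, of a family known to repress collagen genes, passed the criteria in BEAS-2B cells at the lower dose, where its log2 ratio was -0.62 (-0.69 to -0.55). It stood at -0.39 (-0.45 to -0.33) at the higher dose. Only 2 of the 5 neighbours met the ND criterion in that line, with 1 called lower at the lower dose and 0 at the higher. Of all miRNAs meeting it, 13.3% and 16% were called lower. hsa-miR-29b-3p, which a hairpin elsewhere in the genome also yields, stood at -1.15 (-1.69 to -0.68) and -0.33 (-0.72 to 0.05), under the ND criterion. At the lower dose the interval of hsa-miR-29b-3p overlapped that of the 5p arm, and no neighbour's interval reached that of the 3p arm at either dose in this line. The medians of the 5 neighbours in that line were -0.18 and -0.14, against 0.04 and 0.05 for the 397 miRNAs with that mean. In A549 cells, hsa-miR-29a-3p stood at -0.33 (-0.39 to -0.27) and -0.47 (-0.53 to -0.41), close to the -0.31 and -0.63 of the 3p arm, and hsa-miR-29b-3p at 0.01 (-0.29 to 0.32) and -0.45 (-0.81 to -0.11). The median of the 5 neighbours there was -0.35 at the higher dose, against 0.08 for the 397 miRNAs. In A549 cells, 4 of the 5 met the ND criterion at each dose and 0 were called. Of all miRNAs meeting it, 21.9% and 26.2% were called lower.

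miRNAs listed for other imprinted loci also differed from miR-335. Of 160 listed, 37 averaged at least 10 normalised counts. All of the 37 but hsa-miR-296-3p came from a single imprinted locus, DLK1-DIO3, so the counts and medians describe mainly that locus. With the higher dose in A549 cells, 36 of these 37 had a log2 ratio above 0, with a median of 1.53 against 0.08 for all 397. All 11 that met the ND criterion were called higher, against 27% of all miRNAs meeting it. Members such as hsa-miR-411-5p, with 60 control and 305 treated reads, met the criterion only through the treated library. The share called is thus partly set by the criterion and is not used as support. With that dose in BEAS-2B cells, 17 of the 37 were above 0 and 20 below, with a median of -0.01, and 0 of the 2 that met the ND criterion were called. By these medians, this group, nearly all from DLK1-DIO3, went the way of the miR-335 arms in neither line. Other imprinted loci were too little represented to be described.

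A further list held miRNAs described as raised by TGF-β1. Of its 6 members, 4 met the ND criterion in BEAS-2B cells at both doses, and 3 of these were called higher and 0 lower. Of all miRNAs meeting it there, 15.8% and 20% were called higher. The same numbers held in A549 cells with the higher dose, where 27% of all were called higher. The 4 were not the same members: hsa-miR-155-5p was among them only in BEAS-2B cells and hsa-miR-143-3p only in A549 cells. hsa-miR-143-3p met the criterion there only through the treated library, with 148 control and 1106 treated reads. Members did not all go one way: hsa-miR-155-5p stood at -0.46 (-0.55 to -0.37) and -0.44 (-0.52 to -0.35) in BEAS-2B cells, and hsa-miR-21-5p at -0.32 (-0.32 to -0.31) with the higher dose in A549 cells. At the higher dose in BEAS-2B cells, hsa-miR-181b-5p had a log2 ratio of 1.51 (1.39 to 1.63) and hsa-miR-181a-5p one of 1.01 (0.91 to 1.11). hsa-miR-143-3p, a smooth muscle and mesenchymal miRNA, had ratios at that dose of 3.05 (2.81 to 3.32) in A549 and 3.97 (3.11 to 5.55) in BEAS-2B cells. In BEAS-2B cells it stayed under the ND criterion, with 7 control and 101 treated reads. The mesenchymal markers summed to as many as 1728 reads in A549 and to between 10 and 106 in BEAS-2B libraries, were lowest in both controls, and their part in the miR-335 levels was not tested. Of the metastasis suppressors listed beside miR-335, hsa-miR-126-3p had 1003, 1280 and 1166 reads in the A549 and 393, 230 and 197 in the BEAS-2B libraries, with a log2 ratio of 0.38 (0.26 to 0.50) and -0.64 (-0.90 to -0.40) at 5 ng/mL. hsa-miR-206 was at 0 in every library.

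The study took up miR-335-3p for THBS1, so the 3′ untranslated region (UTR) of THBS1-201, of 4097 bases, was searched on the transcript strand. The letters ATGAAAA pair with bases 2 to 8 of miR-335-3p, and TGAAAAA pairs with bases 2 to 7 and ends in an A opposite base 1. An ATGAAAA followed by A would hold both. The 3 matches are shown 5′ to 3′ from GRCh38, plus strand, with the matched letters in capitals.
THBS1 match 1: tgctttggtttcctttTGAAAAA
THBS1 match 2: ttttcaaagtgcagtATGAAAAc
THBS1 match 3: taatttccagttttaATGAAAAc
They lie at chr15:39595605-39595627, chr15:39597785-39597807 and chr15:39598161-39598183. The base facing base 8 of the miRNA is at UTR positions 251, 2431 and 2807. In matches 2 and 3 the matched letters begin there, and in match 1 that base is unmatched and they begin 1 base later. Of 19113 genes with a 3′ UTR, 24.9% held ATGAAAA and 25.8% held TGAAAAA. Among 1650 genes with a 3′ UTR within 20% of this length, 54.3% held ATGAAAA at least once, 23.7% held it at least as often as THBS1, and 55.9% held TGAAAAA. COL4A1, COL4A2 and COL5A1, collagen genes, each held 1 ATGAAAA, and COL1A1, FN1, MMP2 and ITGA5 held 0. COL4A1 and COL4A2 each held 1 TGAAAAA, and COL5A1, COL1A1, FN1, MMP2 and ITGA5 held 0. Whether ATGAAAA and TGAAAAA shared a site in COL4A1 or COL4A2 was not examined. Per kb of 3′ UTR, ATGAAAA came to 0.49 in THBS1, 0.71 in COL4A1, 0.22 in COL4A2 and 0.39 in COL5A1. The letters GCTCTTG, which pair with the seed of miR-335-5p, occurred in 11.5% of all 3′ UTRs and 0 times in that of THBS1. It occurred 2 times in COL1A1, 1 time each in COL4A2 and COL5A1, and 0 times in COL4A1, FN1, MMP2 and ITGA5. These matches are letters in a sequence, and mRNA was not analysed here.

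Other miRNAs known to repress THBS1 come from the miR-17-92 cluster. hsa-miR-18a-5p, hsa-miR-19a-3p and hsa-miR-19b-3p all stayed under the ND criterion. In BEAS-2B cells at 5 ng/mL, all 3 had log2 ratios above 0, 0.56 (-0.11 to 1.27), 0.67 (0.20 to 1.17) and 0.66 (0.30 to 1.04), where the 3p arm was at -2.76. In A549 cells at 5 ng/mL, all 3 were below 0, at -0.41 (-1.32 to 0.44), -0.84 (-1.39 to -0.33) and -0.45 (-0.92 to -0.00), where the 3p arm was at -0.63. With 1 ng/mL in A549 cells, hsa-miR-18a-5p stood at 0.35 (-0.36 to 1.10), hsa-miR-19a-3p at -0.10 (-0.53 to 0.33) and hsa-miR-19b-3p at 0.37 (-0.01 to 0.75), all within counting error.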

How the data were processed

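Small RNA libraries were prepared from total RNA with the NEBNext Multiplex Small RNA Library Prep kit, per the labels. The deposited values were raw counts per mature miRNA, whole numbers without normalisation, 1 table per library. The submitters' processing notes named Bowtie2 and bedtools. Their roles and versions, the genome build, the miRNA annotation and the strand handling were not given in the sources used here. Molecular identifiers were not mentioned, so reads are not independent molecules.

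TMM factors over all 6 libraries were computed with edgeR 4.0.16 in R 4.3.3, and each count was rescaled to the mean effective library size of 749498. A pseudocount of 1 was used for ND and so for log2 ratios, while their exact Clopper-Pearson 95% intervals of the conditional binomial share, and the steps in the order of levels, carry none. Arm changes carry exact conditional intervals of the odds ratio. Each cell line and dose had 1 library, as the labels give it, and no p-value was computed. Python 3.11.15, numpy 2.4.6, pandas 2.3.3, scipy 1.17.1 and RNAfold 2.7.2 were used, with GENCODE release 29 and RefSeq sequences, and the procedure was tested on simulated counts.

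The fold and ND thresholds are the study's, but its normalisation and the library that had to reach the ND threshold were not stated, so TMM and the greater library were chosen here. The members, lists and criteria were chosen with earlier results of these data known. Besides the arms, the miRNAs named were the 5 most alike to each arm, the 3 hairpins with the largest fall and rise of the arm ratio per line, neighbours in abundance rank, list members with a mean normalised count of at least 10, and hsa-miR-21-5p. hsa-miR-206 and the marker miRNAs with few or no reads were named after their values were seen. As alternatives, scaling used total counts, DESeq2 1.42.0 size factors, totals without hsa-miR-21-5p, quantile normalisation (limma 3.58.1), TMM within each line, no scaling, TMM after a low-count filter, other pseudocounts, and other ND, fold, arm-count and likeness settings.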

Additional observations from a re-analysis of the deposited data

How the results depend on the processing

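The labels carry no replicate numbers that could serve as a block. Cell line could have served as one, but no fit with line as a block was made. With 1 library per group, none could be left out. Of 437 recomputed values, 357 stayed within their counting interval or within 1.5 times for counts, and 80 moved further. No called value changed sign. Uncalled values that changed sign under some scalings were the summed arms between the lines at 5 ng/mL (-0.23 to 0.06), and the 3p arm (-0.15 to 0.20) and the summed arms (-0.040 to 0.31) between the BEAS-2B doses. The cause of the moves was not tested. Total-count scaling gave log2 ratios for the 3p arm, the 5p arm and their sum of -3.15, -1.94 and -2.80 in BEAS-2B at 1 ng/mL and of -3.17, -1.70 and -2.72 at 5 ng/mL. It gave -0.035 (3p) and -0.064 (sum) for A549 at 5 against 1 ng/mL, 1.81 and 2.01 for the control lines, and -2.70 and -2.24 for the difference between lines at 5 ng/mL. No scaling gave -3.32, -2.10 and -2.97 in BEAS-2B at 1 ng/mL, -3.11, -1.64 and -2.65 at 5 ng/mL, 1.71 (3p) and 1.91 (sum) for the control lines, and -3.07 and -2.74 for the difference between lines at 1 ng/mL. Filtered TMM gave -3.06 (3p) and -2.60 (sum) in BEAS-2B at 5 ng/mL and 1.60 and 1.79 for the control lines. Quantile normalisation gave 1.47 (3p) and 1.69 (sum) for the control lines and -0.27 for the sum at 1 ng/mL.

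The number of miRNAs called moved with the settings. With an ND of at least 8 in both libraries, it was 44 and 41 in A549 at 1 and 5 ng/mL, 29 in BEAS-2B at 5 ng/mL, 3 between the BEAS-2B doses, and 58, 48 and 50 between the lines. At 2-fold, it was 21 and 42 in A549, 0 between its doses, 13 and 15 in BEAS-2B, 2 between its doses, and 55, 55 and 60 between the lines. Between the A549 doses, it was 40 under total-count scaling and 40 at an ND of 7. In BEAS-2B at 1 ng/mL, it was 70 (total count), 88 (no scaling) and 23 (ND of 9), while at 5 ng/mL it was 79 (total count), 74 (no scaling), 70 (filtered TMM) and 26 (ND of 9). Between the BEAS-2B doses, it was 13 without hsa-miR-21-5p, 20 without scaling, 16 at an ND of 7 and 2 at an ND of 9.

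The number of hairpins with a changed arm ratio at 2-fold was 3, 14 and 4 in A549 (1 ng/mL, 5 ng/mL and between doses), 6, 10 and 6 in BEAS-2B, and 7, 4 and 24 between the lines. With arm means of at least 10, it was 28 in A549 at 1 ng/mL and 36 between the lines at 1 ng/mL. With arm means of at least 50, it was 7 and 11 in A549 (1 ng/mL and between doses), 11, 15 and 11 in BEAS-2B, and 13 and 25 between the lines at 1 and 5 ng/mL. Of the 5 miRNAs most alike to the 3p arm, 3 were kept with Pearson's r and 3 with a mean of at least 10, and for the 5p arm 2 and 2 were kept.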
